A study of Mus musculus with 46 samples.

Results

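Members of the RUNX, C/EBP and TEAD families of DNA-binding proteins, together with the coactivators YAP and TAZ that work through TEAD, were followed through the reprogramming of mouse fibroblasts to pluripotency. They were chosen by symbol from the expression tables and comprise Runx1, Runx2, Cebpa, Cebpb, Cebpd, Tead1, Tead2, Tead4, Yap1 and Wwtr1, which is 10 of the 37108 genes of the gene table. All 10 were also found in the transcript table, as 60 of its 106520 transcripts, and there their transcripts were summed by symbol. All 10 passed the filter on low values in the time course. The starting cells were mouse embryonic fibroblasts (MEF) from embryos of the OG2 mouse, which carries an Oct4-GFP reporter. They were infected in 2 rounds with retroviruses for Oct4 and for either native Nanog (Nanog-WT, labelled Nanog+Oct4) or Nanog fused with an N-terminal piece of SS18 that binds BRG1 (Nanog-BiD, labelled NanogN70+Oct4). SS18 and BRG1 are subunits of the BAF chromatin remodelling complex. Every time-course group therefore carried exogenous Oct4 and a form of Nanog, D0 included, and the groups differed in the fusion. RNA was taken on 8 days (D0, D1, D3 and D5, then D7 and D8, then D10 and D12) with 2 libraries per combination and day, except for Nanog-BiD at D8 with 1. Cells were kept in iCD3 medium until about D7 and in N2B27 with 2iL afterwards, so day and medium cannot be told apart across D7. The references were 2 libraries of uninfected MEF, 1 of OG2 mouse embryonic stem cells (mES), and 12 of established induced pluripotent stem cells (iPSC), 6 per combination from 2 lines each, grown in 2iL without feeders. Of these, 1# and 1#-2 of the first Nanog-WT line carry the same clone number at different passages and were kept as separate libraries.

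RUNX proteins bind DNA together with CBFβ. RUNX1 is best known from blood formation and RUNX2 from bone formation, and both are expressed in mesenchymal cells. C/EBPα, C/EBPβ and C/EBPδ are basic leucine zipper factors that act in adipogenesis and in inflammatory gene expression. TEAD proteins bind DNA but need a coactivator, for which YAP (gene Yap1) and TAZ (gene Wwtr1) compete with VGLL proteins. The Hippo kinases LATS1 and LATS2 hold YAP and TAZ in the cytoplasm by phosphorylation, so that the mRNA levels reported here say nothing of where the proteins were. Fibroblast enhancers are rich in sites for RUNX, C/EBP, TEAD and AP-1 factors.

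Values are FPKM (fragments scaled to the length of the gene model and to the mapped fragments of the library), so levels can be set side by side between genes within a table. Differences were tested with limma on log2(FPKM + 1), over 16842 genes in the time course. They are given on that scale with their standard error (SE), and understate the change of low genes. Adjusted p-values are Benjamini-Hochberg values over all genes tested. A call needed an adjusted p under 0.05 and a change of 2-fold or more (1 on the log2 scale) in either direction. Total FPKM per time-course library was between 370030 and 462190, and 12442 to 14431 genes reached 1 FPKM. Sequencing depth relative to the median was 1.84 to 3.17 in the Nanog-WT libraries from D8 on (n = 6), while the other 25 lay at 0.808 to 1.10, so depth and combination cannot be told apart from D8 on. The Nanog-WT replicates of D0 correlated across genes at r = 0.979, and each was nearer to a Nanog-BiD library of D0 (0.982 for replicate 1 and 0.988 for replicate 2). Values that rest on either are named below. Replicate 1 of Nanog-BiD at D3, both Nanog-WT libraries of D5 and of D7, and those of D10 replicate 2 and D12 replicate 1 were nearest to a library of another day of their combination. The summed FPKM of 12 fibroblast markers was 5831 to 6833 in MEF, 341 to 2033 in Nanog-BiD and 724 to 2344 in Nanog-WT at D0 to D7, 272 to 769 in Nanog-BiD and 1841 to 3152 in Nanog-WT at D8 to D12, and 12.7 in mES. Day by day, the fibroblast sums were lower in both Nanog-BiD libraries at D0, D1, D3, D5 and D7 as well. They were 356 to 395 against 786 to 929 FPKM in Nanog-WT at D3, and 341 to 494 against 755 to 778 at D7. The 5 epithelial markers summed to 74.5 to 165 FPKM in Nanog-BiD and 2.19 to 13.8 in Nanog-WT at D8 to D12. Macrophage markers summed to at most 9.77 FPKM in Nanog-BiD and 54.1 in Nanog-WT at D8 to D12. These are bulk samples, in which fewer cells of a type and less RNA per cell cannot be told apart, and the part of cell composition in the differences below was not tested.

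The comparison of Nanog-BiD with Nanog-WT at each day asks whether the fusion changes the course of these factors. None of the 10 was called at D0, D1, D3 or D5 by limma, against 0.76%, 1.33%, 3.7% and 6.48% of all genes tested. At an unadjusted p under 0.05 there were 3, 3, 2 and 3 on these days. The share of all genes at an unadjusted p is not given, here or below. At D7, 1 of 10 was called, Cebpd, against 10.4% of all genes. At D8, Runx1 and Cebpd were lower in Nanog-BiD, which is 2 of 10 against 22.3% of all genes, with the lone Nanog-BiD library assumed to vary like the other groups. At D10 and at D12, 5 of 10 were called, against 27.8% and 23.4% of all genes. Runx1, Runx2, Cebpb and Cebpd were lower in Nanog-BiD on both days. Tead2 was higher at D10 and Tead4 at D12. On both days the 2 libraries of each combination lay apart from those of the other for all 10. They also did so for 6 of 10 at D0, where none was called, and for 7 at D7. The share of all genes that lay apart in this way is not given, so these counts have no background beside them.

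**Figure D1:**
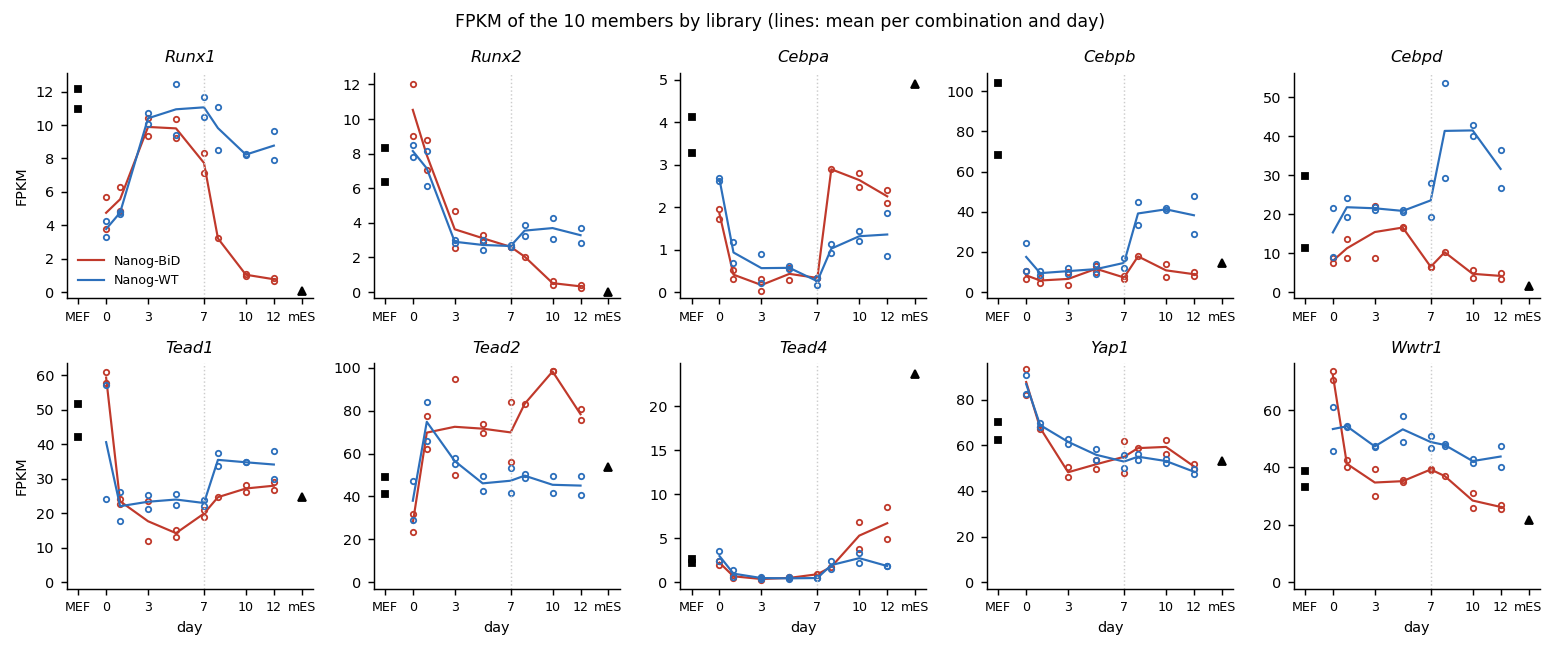
FPKM (vertical axis, linear) of each of the 10 factors by day (horizontal axis). Circles are libraries of Nanog-BiD (red) and Nanog-WT (blue), lines join the group means, squares are MEF, triangles the mES library, and the dotted line marks D7. Runx1 was called on no day up to D7 and then parted, ending at 0.671 and 0.867 FPKM with Nanog-BiD against 7.9 and 9.64 with Nanog-WT at D12, while Yap1 was called on no day.

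**Figure D2:**
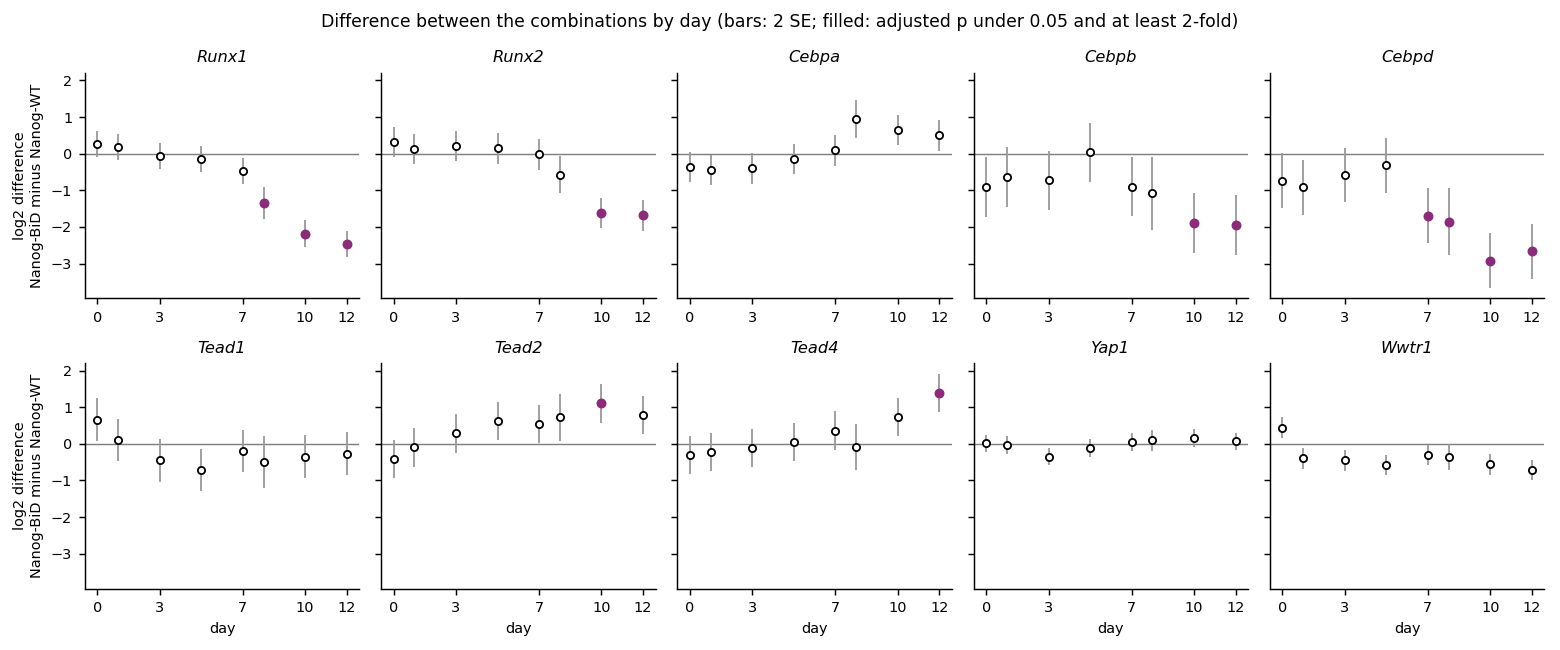
Log2 difference of Nanog-BiD minus Nanog-WT (vertical axis) by day (horizontal axis) for each of the 10 factors, with bars of 2 SE on either side. Filled points passed the adjusted p and the 2-fold limit. The filled points lie at D8, D10 and D12 for Runx1, at D10 and D12 for Runx2 and Cebpb, from D7 on for Cebpd, at D10 for Tead2 and at D12 for Tead4.

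Runx1 (chr16:92601466-92826149, minus strand, GRCm38) stood at 11 and 12.2 FPKM in MEF and was lower at D0, with 5.69 and 3.81 in Nanog-BiD and 4.24 and 3.31 in Nanog-WT. The log2 difference from MEF was -1.15 in Nanog-BiD (adjusted p = 5.7e-05) and -1.40 in Nanog-WT (adjusted p = 1.04e-05). It was -0.91 and under the 2-fold limit in Nanog-BiD when replicate 2 of D0 was left out, and neither was called when only those groups were fitted (adjusted p = 0.0696 and 0.181). By D3 the level was back at 9.34 and 10.4 FPKM in Nanog-BiD and 10.7 and 10.1 in Nanog-WT. At D7 it was 8.35 and 7.13 against 10.5 and 11.7 FPKM, a log2 difference of -0.47 (adjusted p = 0.0575). After D7 the combinations separated. Nanog-BiD gave 3.22 FPKM at D8, 1.09 and 0.991 at D10 and 0.671 and 0.867 at D12. Nanog-WT gave 11.1 and 8.53, then 8.21 and 8.26, then 7.9 and 9.64 FPKM on the same days. All Nanog-BiD values of D8 to D12 lay below all Nanog-WT values of those days. The log2 differences were -1.35 (SE 0.22, adjusted p = 7e-05) at D8, -2.18 (adjusted p = 8.22e-09) at D10 and -2.46 (SE 0.18, adjusted p = 1.72e-09) at D12.

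Runx2 (chr17:44495987-44814797, minus strand), the osteoblast regulator, fell early in both combinations and then further in Nanog-BiD. It was at 6.37 and 8.3 FPKM in MEF and at D0 at 9.02 and 12.0 with Nanog-BiD and 7.82 and 8.49 with Nanog-WT. By D7 it was at 2.6 and 2.63 with Nanog-BiD and 2.73 and 2.59 with Nanog-WT, and these ranges overlapped. The change from D0 to D7 was -1.66 (adjusted p = 2.34e-06) and -1.32 (adjusted p = 3.68e-05) on the log2 scale. At D12 Nanog-BiD libraries held 0.239 and 0.425 FPKM and Nanog-WT libraries 3.73 and 2.85. The log2 difference was -1.62 (adjusted p = 1.98e-06) at D10 and -1.68 (SE 0.21, adjusted p = 1.57e-06) at D12. In Nanog-WT the difference of D12 from D0 was -1.10 (adjusted p = 0.000296), and -0.95 without replicate 2 of D12.

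Among promoter windows of RefSeq (GRCm38.p6, 250 bases before to 50 after the start), 9 windows cover 7 of the 10 genes. They were searched on both strands for TGTGGT (RUNX), TTGCNNAA (C/EBP), CATTCC (TEAD) and TGANTCA (AP-1), strings of which none contains another. Counted per gene, the RUNX letters occur in 18.92% of the 27025 genes with a window, the C/EBP letters in 12.2%, the TEAD letters in 16.58% and the AP-1 letters in 8.973%. Of the 7 genes, Runx1 and Runx2 have the RUNX letters, Runx2 has the C/EBP letters, Runx1, Yap1 and Wwtr1 have the TEAD letters, and none has the AP-1 letters. The 250 bases before the Runx2 start (chr17:44814628-44814877, minus strand, printed 5′ to 3′ along the gene) are shown because they hold letters of 2 of the factor families described here. Capitals mark the RUNX match at -80 and the C/EBP match at -48 from the start. That RefSeq start lies inside the Runx2 location given above, which is from GENCODE, so both matches fall within that location.
Runx2: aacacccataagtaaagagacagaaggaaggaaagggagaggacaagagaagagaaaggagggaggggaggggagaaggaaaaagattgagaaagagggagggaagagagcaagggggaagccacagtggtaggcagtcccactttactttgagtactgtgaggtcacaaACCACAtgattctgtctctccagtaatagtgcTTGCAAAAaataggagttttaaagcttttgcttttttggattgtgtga
A match is a run of letters and not a measured site, and binding was not analysed here.

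Of the RUNX partners and the paralogue Runx3, a list of 9 genes, none was called by limma at D7 (4 at an unadjusted p under 0.05). The share of all genes called at D7 was 10.4%. At D12, 1 of 9 was called, against 23.4% of all genes. That gene was Cbfa2t2, a corepressor of the ETO family, with a log2 difference of 1.07, which was 0.78 and under the 2-fold limit without replicate 1 of Nanog-WT at D12. Cbfb, the shared DNA-binding partner of RUNX proteins, was at 30.8 and 30.1 FPKM in Nanog-BiD and 34.1 and 34.9 in Nanog-WT at D12, a log2 difference of -0.17. Runx3, the T cell and neuronal paralogue, was low, with means of 0.233 and 0.557 FPKM at D12 and a log2 difference of -0.33 (adjusted p = 0.117). Thus the partner was still above 30 FPKM in Nanog-BiD where Runx1 and Runx2 were below 1.

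Of 10 genes of bone matrix and osteoblasts known as RUNX2 targets, 8 were tested. At D12, 4 of the 8 were lower in Nanog-BiD and none was higher, against 9.97% of all genes called lower, and the median log2 difference was -1.66 against 0.17 over all genes. Tnfrsf11b (osteoprotegerin, a decoy receptor that limits osteoclasts) averaged 5.51 FPKM in Nanog-BiD and 199.5 in Nanog-WT, a log2 difference of -4.95. Mmp13, a collagenase, differed by -3.46, Col1a2 by -3.37 and Col1a1 by -2.52. The collagens are also on the fibroblast marker list, of which 11 of 12 were lower at D12. Alpl, alkaline phosphatase, which marks pluripotent cells as well as osteoblasts, went the other way over time. It rose from D0 to D12 by 6.35 in Nanog-BiD and 5.23 in Nanog-WT on the log2 scale and stood at 147 FPKM in mES.

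Cebpb (chr2:167688915-167690418, plus strand), a factor of the adipogenic and acute-phase programmes, had the highest level of the 3 C/EBP genes in MEF, at 104 and 68.2 FPKM. At D0 it was 10.3 and 6.38 FPKM in Nanog-BiD and 24.3 and 10.7 in Nanog-WT. The log2 difference from MEF was -3.22 (adjusted p = 5.69e-06) and -2.31 (adjusted p = 0.000407). The Nanog-WT call was lost when only those groups were fitted (adjusted p = 0.228). At D7 the levels were 8.13 and 6.4 FPKM in Nanog-BiD and 17.2 and 11.9 in Nanog-WT, which did not pass the test (-0.90, adjusted p = 0.11). Nanog-WT libraries then held 44.7 and 33.6 FPKM at D8, 40.7 and 41.7 at D10 and 47.7 and 28.8 at D12. Nanog-BiD libraries held 17.8, then 14 and 7.63, then 9.83 and 7.98. Every Nanog-WT library of D8 to D12 was above every Nanog-BiD library. The log2 difference was -1.89 (adjusted p = 0.000575) at D10 and -1.95 (SE 0.41, adjusted p = 0.000511) at D12.

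Cebpd (chr16:15887286-15891031, plus strand), an early factor of adipogenesis and of the response to cytokines, was the only factor of the 10 called as early as D7. At D7 it was 6.53 and 6.45 FPKM in Nanog-BiD and 27.9 and 19.2 in Nanog-WT, differing by -1.69 on the log2 scale (adjusted p = 0.00195, SE 0.37). It was at 16.6 and 16.5 against 21.2 and 20.5 FPKM at D5. At D8 the levels were 10.2 against 53.6 and 29.2 FPKM, differing by -1.85 on the log2 scale (adjusted p = 0.00314, SE 0.46). At D10 Nanog-BiD held 5.66 and 3.72 FPKM and Nanog-WT 42.9 and 40.1, and at D12 4.92 and 3.38 against 36.6 and 26.7. The groups did not overlap on any of these days. The differences were -2.92 (adjusted p = 1.98e-06) at D10 and -2.66 (SE 0.37, adjusted p = 7.58e-06) at D12.

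Cebpa (chr7:35119293-35121928, plus strand), the factor of terminal adipocyte and myeloid differentiation, took another course. It was at 3.29 and 4.13 FPKM in MEF and 4.91 in mES, and both combinations had a trough between them. Nanog-BiD fell from 1.73 and 1.95 FPKM at D0 to 0.34 and 0.327 at D7 (-1.09, adjusted p = 0.000279). Nanog-WT fell from 2.69 and 2.62 to 0.335 and 0.177 FPKM (-1.54, adjusted p = 5.86e-06). At D8 the Nanog-BiD library held 2.89 FPKM and the Nanog-WT libraries 0.92 and 1.13. At D12 the values were 2.11 and 2.4 against 1.86 and 0.858 FPKM. Cebpa rose from D7 to D12 in Nanog-BiD by 1.29 (adjusted p = 4.66e-05). Between combinations the difference was 0.95 (adjusted p = 0.0059) at D8, 0.65 (adjusted p = 0.0121) at D10 and 0.50 (adjusted p = 0.0532) at D12, always under the 2-fold limit.

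Of 15 genes known as C/EBP targets in fat and in inflammation, 11 were tested. The 6 adipocyte markers, 3 of which are also on this list, summed to at most 1.89 FPKM in any Nanog-BiD library and 13.7 in any Nanog-WT library. At D7, 2 of 11 were lower in Nanog-BiD, against 4.65% of all genes, namely Ptgs2 (cyclooxygenase-2) by -2.14 and Ccl2 (a monocyte chemokine) by -1.61 on the log2 scale. Ccl2 was not called at D7 without replicate 2 of Nanog-WT (adjusted p = 0.0753). At D12, 7 of 11 were lower and none was higher, against 9.97% of all genes called lower. They were Lcn2, Saa3, C3, Cxcl1, Ccl2, Ptgs2 and Mt2, genes of inflammation, of the acute phase or of the metal and stress response, and the median of the 11 was -1.48. Ccl2 averaged 1.84 FPKM in Nanog-BiD and 32.6 in Nanog-WT (-3.61). Saa3, an acute-phase serum amyloid, averaged 7.56 and 55.1 FPKM (-2.54). From D7 to D12 in Nanog-WT, 5 of 11 rose and 1 fell, against 6.66% of all genes called higher, with Saa3 up by 4.09 and Lcn2, an iron-sequestering lipocalin, by 1.79. Of the other C/EBP genes, Cebpz was higher in Nanog-BiD at D12 by 1.21, and by 0.97 without replicate 1 of Nanog-WT.

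The C/EBP letters TTGCNNAA were found in the promoter windows of 8 of the 11 target genes that have one (72.73%, against 12.2% of 27025 genes with a window). These genes were listed as known C/EBP targets, so the share is not independent of that choice and is only a description. The windows of Saa3 and C3 are shown as examples from genes lower at D12, as the 250 bases before the start at chr7:46715677-46715926 and chr17:57228137-57228386, both on the minus strand and printed along the gene. Capitals mark the match, at -99 in Saa3 and at -45 in C3.
Saa3: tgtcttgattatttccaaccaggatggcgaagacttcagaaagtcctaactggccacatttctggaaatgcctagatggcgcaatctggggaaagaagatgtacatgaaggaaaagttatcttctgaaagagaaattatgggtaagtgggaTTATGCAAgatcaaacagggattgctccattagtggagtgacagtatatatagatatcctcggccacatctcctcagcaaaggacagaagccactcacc
C3: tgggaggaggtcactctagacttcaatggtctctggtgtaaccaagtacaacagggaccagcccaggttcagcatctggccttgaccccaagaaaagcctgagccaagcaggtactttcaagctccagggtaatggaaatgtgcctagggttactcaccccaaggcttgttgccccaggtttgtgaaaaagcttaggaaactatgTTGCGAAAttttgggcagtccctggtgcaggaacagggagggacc

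Tead1 (chr7:112679318-112906807, plus strand) and Tead2 (chr7:45215753-45233644, plus strand) were the TEAD genes with the highest levels. Tead1 was at 42 and 51.6 FPKM in MEF, and at D0 at 57.6 and 60.9 with Nanog-BiD and 24 and 57.1 with Nanog-WT, where replicate 1 was the low value. At D1 it was 24.2 and 22.7 FPKM in Nanog-BiD and 17.9 and 26.2 in Nanog-WT. Against D0, the log2 difference in Nanog-BiD was -1.53 (adjusted p = 0.000259) at D7 and -1.06 (adjusted p = 0.00374) at D12. At D12 the combinations stood at 26.8 and 29.1 against 30 and 38.1 FPKM (-0.27, adjusted p = 0.467).

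Tead2, the paralogue known from early embryos and neural progenitors, moved opposite to Tead1 at the start. In Nanog-BiD it went from 31.9 and 23.4 FPKM at D0 to 77.5 and 62.1 at D1 and 83.9 and 55.9 at D7, a change from D0 to D7 of 1.29 (adjusted p = 0.000487). In Nanog-WT it went from 47 and 29 to 83.9 and 65.7 at D1 and was back at 53.3 and 41.4 at D7. At D10 both Nanog-BiD libraries held 98.3 FPKM, against 41.4 and 49.5 with Nanog-WT. The log2 difference was 1.10 (SE 0.26, adjusted p = 0.00139), and 0.98 and under the 2-fold limit without replicate 1 of Nanog-WT. At D12 the levels were 80.9 and 75.9 against 49.6 and 40.5 FPKM, a difference of 0.79 (SE 0.26, adjusted p = 0.0165) under the 2-fold limit.

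Tead4 (chr6:128224288-128300823, minus strand), the trophectoderm regulator, was low in MEF, at 2.18 and 2.7 FPKM, and high in mES, at 23.7. In both combinations its lowest levels came between D1 and D7. Over those days it lay between 0.303 and 0.984 FPKM in Nanog-BiD and between 0.322 and 1.38 in Nanog-WT. In Nanog-BiD it then reached 1.75 FPKM at D8, 6.86 and 3.76 at D10 and 8.57 and 4.88 at D12. In Nanog-WT it reached 2.38 and 1.53, 3.34 and 2.14, and 1.89 and 1.8 FPKM. The change from D7 to D12 was 1.97 (adjusted p = 3.97e-06) in Nanog-BiD and 0.94 (adjusted p = 0.0105), under the 2-fold limit, in Nanog-WT. At D12 the combinations differed by 1.40 (SE 0.26, adjusted p = 0.000168).

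The make-up of the TEAD family was set out as the share of each paralogue in the summed FPKM of Tead1 to Tead4. In MEF, Tead1 held 41.2%, Tead2 39.8%, Tead3 16.9% and Tead4 2.15%. Between D0 and D1 the share of Tead2 went from 29.2% to 71.6% in Nanog-BiD and from 43.2% to 73.1% in Nanog-WT. The Nanog-WT libraries of D0 lay far apart, at 57.1% in replicate 1 and 29.4% in replicate 2. At D12 Nanog-BiD had 23.9% Tead1, 66.9% Tead2, 3.46% Tead3 and 5.70% Tead4, while Nanog-WT had 35.4%, 46.5%, 16.1% and 1.91%. The mES library had 23.7%, 51.3%, 2.24% and 22.7%. Thus the share of Tead3 at D12 was near its MEF value in Nanog-WT, and that of Tead4 in Nanog-BiD was still well below mES. The shares are means over 1 or 2 libraries and were not tested.

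**Figure D3:**
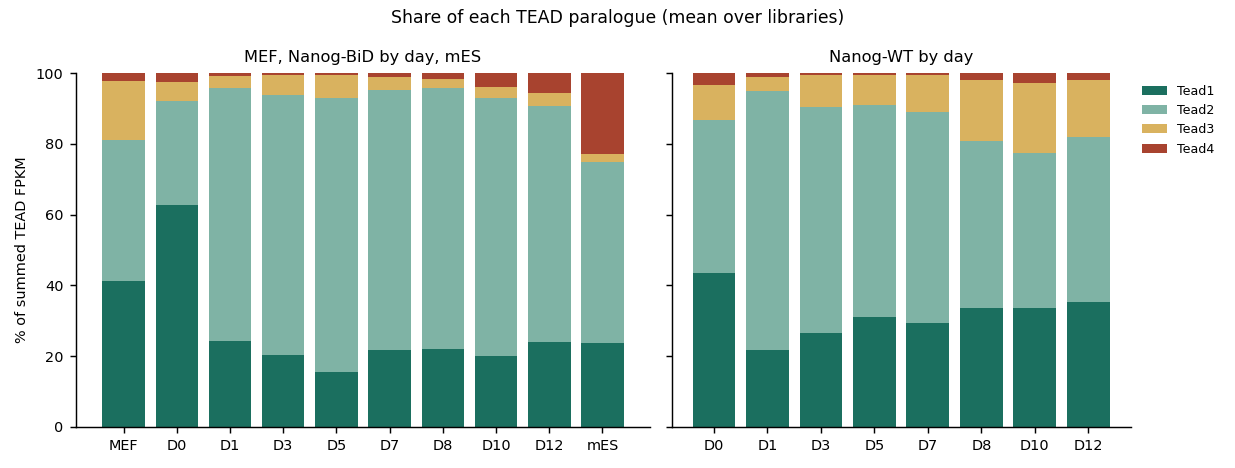
Share of Tead1, Tead2, Tead3 and Tead4 in their summed FPKM (vertical axis, percent), as means over the libraries of each group, for MEF, Nanog-BiD by day and mES on the left and Nanog-WT by day on the right. Tead2 goes from 29.2% at D0 to 71.6% at D1 in Nanog-BiD, and Tead4 reaches 5.70% at D12 in Nanog-BiD, 1.91% in Nanog-WT and 22.7% in mES.

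Tead3 (chr17:28331671-28350817, minus strand) and the VGLL genes form a list of 5, of which 3 were tested. Tead3, a paralogue of epithelia and placenta, was at 19.5 and 18.8 FPKM in MEF. At D7 it was 3.99 and 3.09 FPKM in Nanog-BiD and 9.98 and 6.5 in Nanog-WT, a log2 difference of -1.01 (adjusted p = 0.00164), which was lost on leaving out replicate 1 of Nanog-WT (-0.73, adjusted p = 0.05). At D12 it was 3.75 and 4.33 against 18.1 and 13.2 FPKM (-1.71, adjusted p = 2.3e-06). Vgll3, a TEAD cofactor of fibroblasts, averaged 1.58 and 19.6 FPKM at D12 (-3.00). Vgll4, which binds TEAD in place of YAP, differed by -0.11.

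Yap1 (chr9:7931999-8004596, minus strand) was among the highest of the 10 and differed by less than 2-fold between the combinations on every day. It was at 62.3 and 70.4 FPKM in MEF, 93.5 and 81.9 at D0 with Nanog-BiD and 82.6 and 91 with Nanog-WT. At D7 the levels were 61.8 and 48 against 55.5 and 50.2 FPKM and at D12 51.7 and 49.7 against 49.6 and 47.3. The difference of D12 from D0 was -0.77 (adjusted p = 1.36e-05) in Nanog-BiD and -0.83 (adjusted p = 1.57e-05) in Nanog-WT, under the 2-fold limit in both. At D12 the combinations differed by 0.07 (SE 0.12, adjusted p = 0.673), with an interval of 2 SE from -0.17 to 0.31, so that a difference of 2-fold lay outside it. The mES library held 53.1 FPKM.

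Wwtr1 (chr3:57455649-57575910, minus strand), which encodes TAZ, declined more in Nanog-BiD. It was at 38.8 and 33.3 FPKM in MEF and at D0 at 70.6 and 73.7 with Nanog-BiD and 45.8 and 61 with Nanog-WT. At D5 it was 34.8 and 35.7 FPKM against 57.8 and 48.8, differing by -0.58 on the log2 scale (adjusted p = 0.0076, SE 0.14). At D12 it was 25.7 and 26.8 FPKM against 40.2 and 47.4, a difference of -0.71 (SE 0.14, adjusted p = 0.000335). From D1 on, every Nanog-BiD library lay below the Nanog-WT libraries of its day, yet no day reached the 2-fold limit. From D0 to D12 Wwtr1 fell in Nanog-BiD, with a log2 difference of -1.42 (adjusted p = 5.03e-08). The mES library held 21.6 FPKM.

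The promoter windows of Yap1 (chr9:8004597-8004846) and Wwtr1 (chr3:57575911-57576160), both minus strand and printed along the gene, are shown because each holds the TEAD letters, in capitals, read here on the opposite strand as GGAATG. The matches lie at -141 and -136 from the start.
Yap1: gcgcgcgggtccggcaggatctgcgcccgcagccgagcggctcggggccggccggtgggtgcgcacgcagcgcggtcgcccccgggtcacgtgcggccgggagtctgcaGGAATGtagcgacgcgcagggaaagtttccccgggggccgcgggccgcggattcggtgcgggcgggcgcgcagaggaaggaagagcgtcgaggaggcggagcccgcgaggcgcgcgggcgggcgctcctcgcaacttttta
Wwtr1: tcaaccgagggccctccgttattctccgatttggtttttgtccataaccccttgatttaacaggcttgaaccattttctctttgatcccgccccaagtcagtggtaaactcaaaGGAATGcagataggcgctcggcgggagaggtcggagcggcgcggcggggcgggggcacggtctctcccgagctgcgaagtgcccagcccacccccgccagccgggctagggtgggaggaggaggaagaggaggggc

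The 17 Hippo kinases and scaffolds, which control YAP and TAZ, were all tested. None was called by limma at D7 (7 at an unadjusted p under 0.05), against 10.4% of all genes. The median at D7 was 0.12, against 0.08 over all genes. At D12, 4 of 17 were lower in Nanog-BiD and none was higher, against 9.97% of all genes called lower, with a median of -0.54. They were Lats2 (-2.01), a kinase of YAP and itself a target gene of YAP, the phosphatase Ptpn14 (-1.59), and the angiomotins Amotl2 (-1.28) and Amot (-1.02), which hold YAP at junctions. Amot was lost on leaving out any of the 4 libraries (adjusted p = 0.0508 to 0.0744). Lats2, Ptpn14 and Amotl2 also belong to the target list that follows.

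The 22 genes known from elsewhere as targets of YAP, TAZ and TEAD were all tested. Whether their levels follow the activity of the pathway in these cells was not tested. Nanog-BiD was called lower than Nanog-WT by limma for none of them at D0 (3 at an unadjusted p under 0.05) and for 1 at D1, 6 at D3, 4 at D5, 7 at D7, 12 at D8, 17 at D10 and 17 at D12. Called higher were 1 at D5, 1 at D7 (Fjx1), 1 at D10 and none on the other days, where 3.2%, 5.79% and 15.4% of all genes were higher at D5, D7 and D10. The share of all genes called lower was 0.962% at D1, 2.45% at D3, 3.28% at D5, 4.65% at D7, 9.35% at D8, 12.3% at D10 and 9.97% at D12. The median log2 difference of the 22 was -0.75 at D7, where it was 0.08 over all genes, and -1.91 at D12, where it was 0.17. The fibroblast markers, at 272 to 769 against 1841 to 3152 FPKM from D8 on, moved with these genes. Their sums were already lower in Nanog-BiD at D3 (356 to 395 against 786 to 929 FPKM) and at D7 (341 to 494 against 755 to 778).

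Ccn2 (chr10:24595442-24598683, plus strand), the connective tissue growth factor, differed before D7. It was at 384 and 546 FPKM in MEF, 699.8 and 746 at D0 with Nanog-BiD and 1049 and 715 with Nanog-WT. At D3 it was 4.28 and 6.21 FPKM in Nanog-BiD and 46.1 and 54.4 in Nanog-WT, and at D7 5.98 and 7.53 against 51 and 58.7. The log2 difference at D7 was -2.85 (SE 0.31, adjusted p = 1.34e-06). At D8 the levels were 25 FPKM against 37.4 and 44.3, and Ccn2 was not among the 12 called. Nanog-BiD rose to 20.7 and 14 FPKM at D12, by 1.23 from D7 (adjusted p = 0.00359), while Nanog-WT was at 55.7 and 70.8. The difference at D12 was -1.82 (SE 0.31, adjusted p = 7.77e-05). The other targets with the largest differences at D7 were Foxf2 (-2.10), a mesenchymal forkhead factor, Igfbp3 (-1.79), which binds insulin-like growth factors, and Nt5e (-1.64), the ectonucleotidase CD73.

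Ccn1 (chr3:145646976-145649981, minus strand), a matricellular protein, was not called until D10. At D5 it was at 33.5 and 30.2 FPKM in Nanog-BiD and 29 and 35.6 in Nanog-WT. At D12 it was 15.5 and 17 against 123 and 159 FPKM, differing by -3.02 on the log2 scale (adjusted p = 7.62e-10, SE 0.21). In Nanog-WT it rose from D7 to D12 by 2.06. Ankrd1 (chr19:36111961-36120099, minus strand), a muscle ankyrin repeat protein, lay between 37.7 and 57.2 FPKM in the D0 libraries and between 0.941 and 6.35 in those of D1. At D12 it was at 0.388 and 0.819 FPKM in Nanog-BiD and 10.3 and 13 in Nanog-WT (-2.98, SE 0.38, adjusted p = 2.17e-06). Nt5e, with means of 3.7 and 62.3 FPKM (-3.75, adjusted p = 5.94e-10), and Ccdc80 (-3.48), a secreted matrix protein, were the other large differences at D12.

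Over D7 to D12 in Nanog-WT, 7 of the 22 targets rose and none fell, against 6.66% of all genes called higher. Ankrd1 rose by 2.77, Amotl2 by 2.54, Ccn1 by 2.06 and Ccdc80 by 1.81 on the log2 scale, while the levels of Yap1 and Wwtr1 went from 55.5 and 50.2 to 49.6 and 47.3 FPKM and from 46.8 and 51 to 40.2 and 47.4. Of the fibroblast markers, 8 of 12 rose over the same days in Nanog-WT. In Nanog-BiD, 2 targets rose over these days (Ccn2 and Nuak2) and 4 fell (Lats2, Ccdc80, Nt5e and Dock5), against 11.6% and 8.37% of all genes. Amotl2 in Nanog-BiD went from 19 and 22.9 to 36.4 and 41.3 FPKM (0.87, adjusted p = 0.0139).

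**Figure D4:**
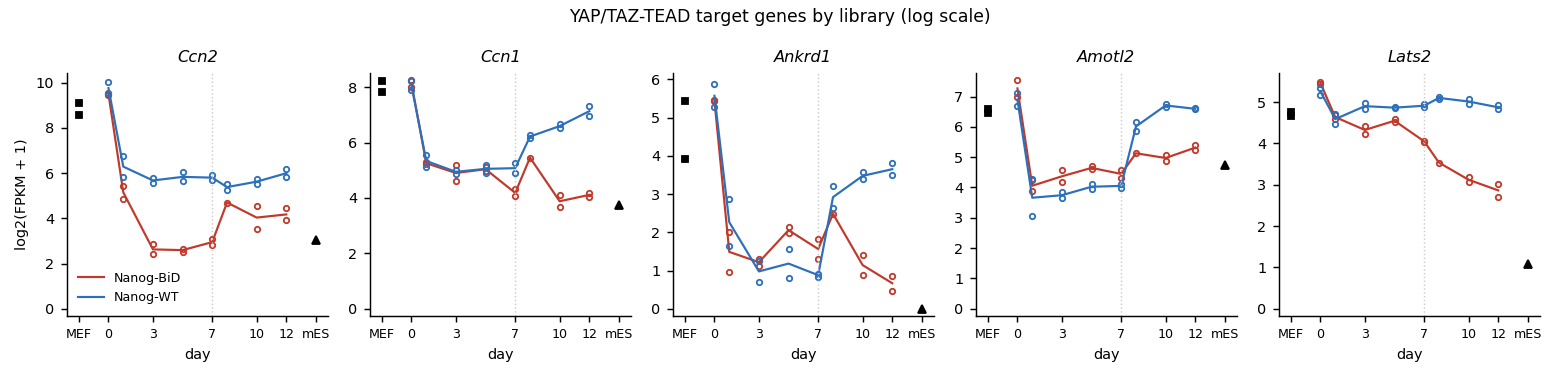
Log2(FPKM + 1) (vertical axis) of the YAP/TAZ-TEAD target genes Ccn2, Ccn1, Ankrd1, Amotl2 and Lats2 by day (horizontal axis), with circles for libraries of Nanog-BiD (red) and Nanog-WT (blue), lines through group means, squares for MEF and triangles for mES. Ccn2 parted by D3, at 4.28 and 6.21 against 46.1 and 54.4 FPKM, whereas Ccn1, Ankrd1 and Amotl2 rose after D7 in Nanog-WT, where Ccn1 reached 123 and 159 FPKM at D12.

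The TEAD letters CATTCC were found in the windows of 7 of the 15 target genes that have one (46.67%, against 16.58% of all genes with a window). As with the C/EBP list, the genes were listed as known targets, so the share is only a description. The windows of Ccn1 (chr3:145649986-145650235) and Ankrd1 (chr19:36119845-36120094), both minus strand and printed along the gene, are shown as the targets with large differences at D12. Capitals mark the TEAD match at -103 in Ccn1 and at -210 and -123 in Ankrd1, where the letters are read on the opposite strand. The Ankrd1 window counts from a RefSeq start and lies wholly inside the Ankrd1 location given above, which is from GENCODE.
Ccn1: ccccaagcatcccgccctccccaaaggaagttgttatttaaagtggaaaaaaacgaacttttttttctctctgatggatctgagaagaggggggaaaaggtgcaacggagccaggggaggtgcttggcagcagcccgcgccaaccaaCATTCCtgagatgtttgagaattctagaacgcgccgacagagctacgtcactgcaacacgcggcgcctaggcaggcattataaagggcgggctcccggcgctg
Ankrd1: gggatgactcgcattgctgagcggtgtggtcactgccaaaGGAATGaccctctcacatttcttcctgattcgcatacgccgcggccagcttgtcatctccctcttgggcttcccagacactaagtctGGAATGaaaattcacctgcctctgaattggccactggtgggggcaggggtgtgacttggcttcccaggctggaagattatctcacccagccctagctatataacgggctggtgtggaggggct

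Within each combination, 4 of the 10 factors changed from D0 to D7, against 18.8% of all genes in Nanog-BiD and 17.7% in Nanog-WT. In Nanog-BiD these were Runx2, Cebpa and Tead1, lower, and Tead2, higher. In Nanog-WT they were Runx2, Cebpa and Tead4, lower, and Runx1, higher by 1.34 (adjusted p = 4.9e-06). Tead4 differed there by -1.41 (adjusted p = 0.000207). From D7 to D12, 4 changed in Nanog-BiD, against 20% of all genes, namely Runx1 (-2.30, adjusted p = 3.46e-09) and Runx2 (-1.44, adjusted p = 1.19e-05), lower, and Cebpa and Tead4, higher. In Nanog-WT 1 changed, against 11.3% of all genes, and this was Cebpb, higher by 1.32 (SE 0.41, adjusted p = 0.0213). That call was lost without replicate 2 of D7 (1.07, adjusted p = 0.174) and without replicate 1 of D12 (0.96, adjusted p = 0.217).

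From D0 to D12, 6 of 10 changed in Nanog-BiD, against 34.7% of all genes, and 4 in Nanog-WT, against 16.2%. In Nanog-BiD Runx1 (-1.68), Runx2 (-3.11, adjusted p = 2.11e-10), Tead1 and Wwtr1 were lower and Tead2 (1.48, adjusted p = 6.37e-05) and Tead4 (1.22, adjusted p = 0.000439) higher. Tead4 was under the 2-fold limit there after quantile normalization (0.75) and without replicate 1 of D12 (0.87). In Nanog-WT Runx1 (1.03, adjusted p = 0.000119), Cebpb (1.15, adjusted p = 0.0318) and Cebpd (1.10, adjusted p = 0.0256) were higher and Runx2 lower. Cebpb and Cebpd were at 0.59 and 0.51 without replicate 2 of D0, and Runx1 at 0.89. The calls of Cebpb and Cebpd were also lost without replicate 1 of D12, at 0.79 and 0.88. The median of all genes moved by 0.34 in Nanog-BiD and 0.19 in Nanog-WT from D0 to D12 and by 0.24 and 0.12 from D0 to D7, and by at most 0.02 in size after quantile normalization at D12.

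The change from D0 to D12 differed between the combinations for 6 of 10, against 23.9% of all genes. It was lower in Nanog-BiD for Runx1 by -2.72 (SE 0.25, adjusted p = 1.53e-07), for Runx2 by -2.004 (SE 0.29, adjusted p = 2.96e-05), for Cebpd by -1.92 (SE 0.53, adjusted p = 0.0076) and for Wwtr1 by -1.15 (SE 0.20, adjusted p = 0.000174). It was higher for Tead4 by 1.69 (SE 0.37, adjusted p = 0.00133) and for Tead2 by 1.21 (SE 0.37, adjusted p = 0.0147). Replicate 1 of Nanog-WT at D0 bears on these values. Without it, Wwtr1 was at -0.95 and under the 2-fold limit and Tead2 at 0.87 and not called (adjusted p = 0.0862). Tead2 was also not called without replicate 2 of Nanog-BiD at D0 (1.00) or of Nanog-WT at D12 (1.07). With that library as the lone Nanog-WT sample of D0, Cebpb (-1.47), Cebpd (-1.33) and Tead1 (1.27) were called between the combinations at D0. The change from D0 to D7 was called for none of the 10 by limma, against 10.1% of all genes, with 3 at an unadjusted p under 0.05, and Wwtr1 had an adjusted p of 0.0152 at -0.75.

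From MEF to D0, after infection, 2 of 10 were called in each combination, Runx1 and Cebpb, both lower, against 11.4% of all genes in Nanog-BiD and 6.75% in Nanog-WT. Wwtr1 was above MEF by 0.98 (adjusted p = 3.05e-05) and 0.54 (adjusted p = 0.0104) and Yap1 by 0.40 (adjusted p = 0.0164) and 0.38 (adjusted p = 0.0285), under the 2-fold limit. Macrophage markers summed to 53.3 to 167 FPKM in the D0 libraries and 5.03 to 12.5 in MEF.

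In the established lines the RUNX and C/EBP genes of the 10 were lower than in MEF, and Tead4 was higher. Against MEF, 6 of 10 were called, against 40.4% of the 13434 genes tested in the transcript table, which was normalized apart from the gene table. Runx1 was at 0.414 ± 0.501 FPKM (SD, n = 12) and averaged 10.2 in MEF (log2 difference -3.06, adjusted p = 1.93e-07). Runx2 was at 0.24 ± 0.519 against 8.45 FPKM (-3.00, adjusted p = 1.63e-06). Cebpb was at 7.63 ± 5.41 against 65.8 FPKM (-3.27, adjusted p = 2.83e-05), Cebpd at 0.689 ± 0.574 against 15.5 (-3.25, adjusted p = 1.16e-06) and Cebpa at 0.635 ± 0.539 against 2.87 (-1.28, adjusted p = 0.000857). By the same quantification, Cebpa stood at 3.58 FPKM in the lone mES library, above the means of iPSC and MEF. Tead4 was at 14.9 ± 2.02 against 2.40 FPKM (2.25, SE 0.12, adjusted p = 7.42e-09), with every iPSC library between 13.1 and 19.7. Both Tead4 transcripts were higher in the lone mES library, at 17.9 and 6.33 FPKM against iPSC means of 10.6 and 4.35. The main Cebpb transcript held 10.2 FPKM in mES and averaged 5.91 in iPSC.

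Tead1 (26.4 ± 4.22 against 43.8 FPKM, -0.75, adjusted p = 0.000181) and Wwtr1 (19.1 ± 2.85 against 30.9, -0.70, adjusted p = 2.64e-05) were lower in iPSC by less than 2-fold. Tead2 was at 41.2 ± 6.40 against 51.8 FPKM (-0.32, adjusted p = 0.0667). Yap1 was at 65.5 ± 5.95 against 64.6 FPKM, a log2 difference of 0.01 (adjusted p = 0.945, interval of 2 SE from -0.19 to 0.21) whose sign turned under other scalings (-0.22 and -0.21). The median of all genes moved by 0.22 in this comparison. Of the YAP/TAZ-TEAD targets, 14 of 21 tested were lower in iPSC than in MEF and none was higher, against 18.7% of all genes called lower. Ccn2 differed by -3.87, Ankrd1 by -4.08, Ccn1 by -3.18 and Lats2 by -2.37. Tead3 (-2.83, adjusted p = 4.35e-08) and Vgll3 (-3.80) were lower as well. The C/EBP targets did not all go with the lower Cebpb and Cebpd. Saa3 was called higher, averaging 11.99 FPKM in iPSC and 0.082 in MEF, as was Mt2, at 457 and 32.9. Pparg, Fabp4, Il6, Ccl2 and Ptgs2 were called lower. Of the RUNX2 targets, Alpl was called higher, at 192 against 1.74 FPKM. Mmp13, Col10a1, Col1a1, Col1a2 and Tnfrsf11b were called lower.

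The lines of the 2 combinations were then compared, with the line as a covariate. Of the 10 factors 8 passed the filter, Runx1 and Runx2 being under it, and 0 of 8 were called by limma, with 0 at an unadjusted p under 0.05, against 0% of all 12456 genes. The log2 differences lay between -0.10 (Cebpa) and 0.26 (Cebpd). Library 9# of the first Nanog-BiD line stood apart. It held 1.91 FPKM of Runx1, 1.83 of Runx2 and 19.2 of Cebpb, where the other 5 Nanog-BiD libraries held at most 0.562, 0.113 and 13.7. Its fibroblast markers summed to 1372 FPKM, against 3.45 to 431.6 in the other 11 iPSC libraries, and 10 of the 12 reached 1 FPKM in it. Its pluripotency markers summed to 2481 FPKM, against 3389 to 5871 in the others. Without it, Runx1 in Nanog-BiD iPSC was at 0.238 ± 0.209 FPKM (SD, n = 5) and Nanog-WT iPSC at 0.311 ± 0.159 (n = 6). The calls against MEF stayed at 6 without it, with Runx1 at -3.14 and Runx2 at -3.12. With 1# and 1#-2 of the first Nanog-WT line averaged as 1 sample, 6 were called against MEF and 0 between the combinations.

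**Figure D5:**
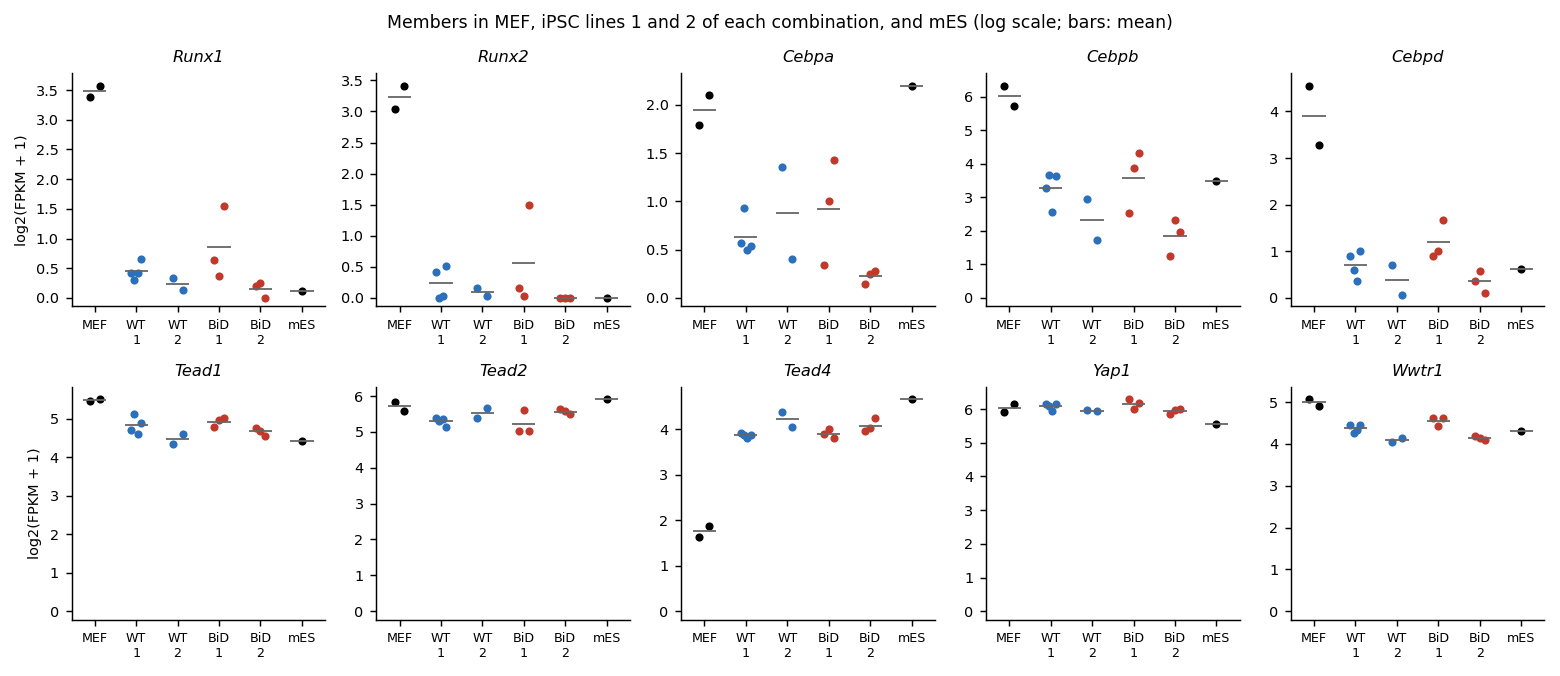
Log2(FPKM + 1) (vertical axis) of the 10 factors in MEF, the first and second iPSC line of Nanog-WT (WT 1, WT 2) and Nanog-BiD (BiD 1, BiD 2), and mES, from the transcript table. Points are libraries and bars their mean. The iPSC points of Runx1, Runx2, Cebpb and Cebpd lie below both MEF points, those of Tead4 above them at 13.1 to 19.7 FPKM, and the raised point of Runx1 and Runx2 in BiD 1 is library 9#, at 1.91 and 1.83 FPKM.

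At the level of transcripts, Cebpd has 1 in the table. Cebpa has 5, of which 1 held all of the gene's FPKM in MEF and in mES, whereas in iPSC, at a low level, the 5 held 16.6% to 25.6% each. In MEF 1 Runx1 transcript held 65.8% of the gene's FPKM and another 34.2%. Tead4 was divided between 2 transcripts, at 80.6% and 19.4% in MEF and 70.9% and 29.1% in iPSC. The 3 Cebpb transcripts were near even in MEF (32.0% to 34.9%), whereas 1 of them held 77.4% in iPSC and 99.2% in mES. How reads that fit several transcripts of a gene were divided between them is an estimate of the quantification.

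The factors did not all move alike over the 16 combination and day means. Pearson r of log2 levels was 0.86 for Cebpa with Tead4, 0.80 for Runx2 with Wwtr1 and 0.75 for Runx1 with Cebpd, and -0.82 for Runx1 with Tead4. These points share their combination and their day, and r is given as a description. Among the tested genes most like Runx1 were B2m (r = 0.98) and Pcolce (0.97), those most like Runx2 were Fst (0.98), Lmna (0.97) and Steap2 (0.96), and that most like Cebpd was Foxd1 (0.98). Glis2 was nearest to Cebpb (0.95), Fgfr2 to Cebpa (0.95), Mxra7 to Tead4 (0.96), Rhobtb3 to Tead1 (0.95), Abcf1 to Tead2 (0.94), Rnf128 to Yap1 (0.94) and Ednra to Wwtr1 (0.95).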

How the data were processed

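RNA-seq libraries of the time course, MEF and mES (34) were deposited as a gene table, and those of iPSC, MEF and mES (15) as a transcript table. Both tables as deposited hold FPKM, computed by the authors per gene or per transcript and kept apart for each replicate. Per the submitters' processing notes and the study's methods, reads were trimmed with Trim Galore 0.6.4, aligned to mm10 with HISAT2 2.2.1 and quantified with StringTie 2.2.1. The annotation and the use of strand are not given in the sources used here, so genes that overlap another are uncertain. The labels and the methods name different library kits. The authors called differences with GFOLD, which was not used here.

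No count model was used, since FPKM are not counts. Values were analysed as log2(FPKM + 1). Genes that reached 1 FPKM in 2 or more libraries of the fit were tested with limma 3.58.1 in R 4.3.3 (intensity trend, 1 mean per group, two-sided), with Benjamini-Hochberg adjustment over all tested genes. The time-course contrasts used all 31 libraries, those with MEF all 34. The iPSC were compared with MEF over 15 libraries, and with each other over 12 with the line as covariate. The lone mES library was set beside the others without a test. Line and passage cannot be told apart. Nothing in the labels says that replicates came from separate cultures, so p-values measure the spread between these libraries. The fits were tested on simulated data in which 200 genes had a log2 change of 2. Of these, 191 (95.5%) were recovered with 2 others called in Nanog-BiD against Nanog-WT at D5 (16842 genes), and 191 (95.5%) with 3 others in iPSC against MEF (13434 genes). Smaller changes, nearer to the 2-fold limit, were not simulated, so their recovery is not known.

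Relative depth was computed from the smallest steps of low FPKM values, so that only ratios of depth are known, and no interval or detection floor is given. Ccn1 and Ccn2 appear under older symbols in the transcript table. Locations are from GENCODE M21 (GRCm38) and promoter windows from RefSeq (GRCm38.p6). The members, the gene lists and the tests were chosen with earlier results of these data known. Within a list, up to 4 called genes with the largest differences per comparison were named, besides Runx3, Cbfb, Tead3, Vgll3, Vgll4, Ccn1, Ccn2, Ankrd1, Amotl2 and Lats2, and for likeness the genes with the highest Pearson r, of which some are not reported here. Other genes named in a count, the C/EBP and RUNX2 targets named for iPSC, and the sequences printed, were chosen after their values were seen. Alternatives were a pseudocount of 0.1, no filter or a filter of 5 FPKM, rescaling to a common total, quantile normalization, no fold limit, the compared groups alone, the replicate number as a block, and each library left out. The alternatives for the target lists were added after the data were seen. Python 3.11.15 with numpy 2.4.6, pandas 2.3.3 and matplotlib 3.10.9 was used for the remaining steps.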

Additional observations from a re-analysis of the deposited data

Results flagged for a closer look

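In the Nanog-BiD iPSC (n = 6), library 9# of the first line lay apart from the others at 1.91 FPKM of Runx1 and 1.83 FPKM of Runx2. Its gap to the nearest library was 0.706 and 0.938 of the group's range. Its summed fibroblast markers are given with the iPSC results. In the first Nanog-WT iPSC line (n = 4), library 1#-2 lay apart at 0.908 FPKM of Cebpa, with a gap of 0.856 of the range. Over all 6 Nanog-WT iPSC libraries, Cebpa reached 1.57 FPKM and none was flagged. These were 3 of 30 groups of values examined. Chance alone gives about 5% where values are normally distributed, which was not tested for these low FPKM. The groups were not independent, since the first Nanog-WT line also lay within the Nanog-WT group and library 9# gave both Runx values.

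The change from D0 to D12 differed between the combinations, as a tested interaction, by -2.72 for Runx1, -2.004 for Runx2, -1.92 for Cebpd and -1.15 for Wwtr1, lower with Nanog-BiD, and by 1.21 for Tead2 and 1.69 for Tead4, higher with Nanog-BiD. From D8 on, the 6 Nanog-WT libraries were sequenced at 1.84 to 3.17 times the median depth, and the part of depth in these differences was not tested.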

How the results depend on the processing

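Of 304 alternative values for 24 counts of calls, 276 stayed within 1.5 times the main count, and of 681 for the 52 called values of the 10 factors, 652 kept the call, 29 lost it and 0 changed direction, in 12 of the 52. With the replicate number as a block, all 19 time-course counts of calls and all 126 single values kept their call and direction, for example with 5 of 10 called at D12. Deviations of same-numbered libraries correlated between the combinations at -0.06 to 0.39 by day, over 0.1 on 4 of 7 days but not on all, so the numbers were not taken to pair the samples.

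Without a fold limit, 1 of 10 was called between the combinations at D5, 8 at D10, 8 from D0 to D7 in Nanog-BiD, 3 from D7 to D12 in Nanog-WT, 1 for the difference in change to D7, 6 from MEF to D0 in Nanog-BiD and 4 in Nanog-WT, and 13 YAP/TAZ-TEAD targets at D7. Rescaling gave 4 at D8 and 3 from D7 to D12 in Nanog-WT. A pseudocount of 0.1 gave 3 from D7 to D12 in Nanog-WT and 4 from MEF to D0 in Nanog-BiD. Fitting the compared groups alone gave 0 from D7 to D12 and 1 from D0 to D12 in Nanog-WT, 1 and 0 from MEF to D0 in Nanog-BiD and Nanog-WT, and 1 C/EBP target at D7. With no filter, 2 were called from D0 to D12 in Nanog-WT. On leaving out a library, calls ranged from 0 to 3 at D0, 0 to 2 from D7 to D12 and 1 to 4 from D0 to D12 in Nanog-WT, 0 to 2 for the difference in change to D7, and 1 to 2 from MEF to D0 in Nanog-BiD. The share of all genes called under each alternative is not given, so these counts have no background beside them. The cause of these changes was not tested.

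Small differences changed sign. Yap1 in iPSC against MEF was -0.22 after rescaling, -0.21 after quantile normalization and -0.12 to 0.14 on leaving out a library. The difference in its change to D12 was -0.060 after rescaling and -0.041 without replicate 2 of Nanog-BiD at D0. On leaving out a library, Vgll4 at D12 ranged from -0.30 to 0.080, Cebpa between iPSC from -0.29 to 0.15 and Ccn1 from D7 to D12 in Nanog-BiD from -0.20 to 0.056. Tead3 over those days was -0.031 after quantile normalization. Depth is known only as ratios, and the SE between groups of 2 was 0.41 for Cebpb and 0.12 for Yap1, so that smaller differences were detectable for Yap1.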
